A study of Mus musculus with 8 samples.

Results

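The genes described are those of the cytosolic ribosomal proteins, chosen by symbol: Rpl or Rps followed by a digit, or Rplp0, Rplp1, Rplp2 or Rpsa, without pseudogene symbols and without the S6 kinase genes. Over all files 86 of 20763 listed genes met this rule, and 82 of the 16115 genes that both kinds of deposited file list. Of the 82, 45 encode core proteins of the large subunit, 31 core proteins of the small subunit, and 6 are tissue paralogs or proteins that only carry such a symbol. The other 4 (Rpl37rt, Rps4l, Rps4y2 and Rpl39l) are listed in 1 kind of file only and entered no test. The rule uses no measured value, but it was set with earlier results of these data known.

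The ribosome translates messenger RNA into protein, and its small subunit reads the message while its large subunit joins the amino acids. Each cytosolic ribosome holds about a single copy of nearly every ribosomal protein, so their genes are usually expressed together and at a high level. Many of their messages begin with a run of pyrimidines, the 5′ terminal oligopyrimidine tract, through which growth signals acting on mTOR are known to set their translation.

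The cells were sorted 1 per well from C57BL/6 mouse intestinal organoids for a reporter of enteroendocrine cells, the hormone-making cells of the gut epithelium. Not every kept cell reached a set level of endocrine markers, as given below. The Tac1 and Gip reporters are Cre lines by the sample titles, in which the label can outlast the hormone, while the Gcg reporter is a Venus line. The conditions were no BMP4 and exposure to it for 24 h or 4 days. BMP4 is a bone morphogenetic protein, a signal known to be stronger near the villus tip than at the crypt base. The 3 conditions lay on 5 plates of 384 wells in blocks of neighbouring columns: Tac1 replicates 1 and 2, Gcg replicates 1 and 2, and 1 Gip plate. A further 3 Tac1 plates held 24 h cells (1 plate) or 4 day cells (2 plates) and no untreated cells. Plates of 1 line were taken as replicates, but the labels name no separate cultures. For BMP4 and depth, the p-values measure how far the difference within a plate varies from plate to plate. For untreated lines they measure the spread between plates. Part or all of either spread may be technical. The place on the plate and the condition cannot be told apart.

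Of 3072 wells, 995 held at least 2000 transcripts and were kept, and the cells of a plate and condition were summed where there were at least 10. This gave 17 sums of 15 to 133 cells and 96185 to 1249920 transcripts, 14 of them on the plates with 3 conditions. The 24 h block of Tac1 replicate 2 held 9 such cells and gave no sum. Of the endocrine markers, all 8 listed (such as Chga and Cpe) had counts in each condition. Their summed level was 8.29 to 8.41% of transcripts in untreated Tac1 cells and 0.588 to 1.09% in untreated Gcg cells. Singly, 4 of the 8 had a log2 difference below 0 for untreated Gcg against Tac1 cells (Chga lowest, -5.35) and 4 above 0. The plates share the same well names, and no well of any plate had the same counts as that well of another. The Tac1 files hold values rounded to 2 decimals and the Gcg and Gip files hold full precision, so the line and the way a file was made cannot be told apart.

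Ribosomal protein messages were abundant but unevenly counted. Each transcript was counted by a tag at its 3′ end, so levels need no scaling for length and are given in CPM, counts scaled to the same total in every sum. Over the 17 sums the 82 genes had a median mean level of 531 CPM, and 70 of them exceeded 100 CPM. The 5 highest held 15.99% of all ribosomal protein transcripts. They were Rplp1, an acidic protein of the large-subunit stalk, at a mean of 1648 CPM, Rpl41 at 1634, Rpl10 at 1415, and the small-subunit genes Rps12 at 1088 and Rps3a1 at 1007 CPM.

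Several core subunit genes had few counts in every library. Rps27 had 5 counts over all 17 sums and was at 0 in 14 of them, Rpl30 had 9 counts and Rpl34 had 19. Rps15a had 58 counts, Rplp2 61 and Rpl37 117. These 6, with the paralogs Rpl10l (12 counts) and Rpl22l1 (18 counts), are the 8 members that did not pass the filter on low counts, and 74 members were tested for BMP4. Ribosomal protein genes have many processed copies in the genome. For Rps27, 100% of the 60-base windows in the last 300 bases of its transcript also occur in at least 1 other GENCODE M21 gene, against 79.2% for Rpl30, 52.3% for Rpl34, 2.49% for Rplp2 and 0% for Rps15a and Rpl37. The abundant Rpl10 also had 100%. Rpl37rt had no protein-coding entry under that symbol in GENCODE M21. GENCODE M21 is not known to be the annotation the authors counted on, and the part of such copies in the low counts was not tested.

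Start-site sequences are shown because the pyrimidine tract is the feature best known for this family. Of the members shown, Rps21, Rps3a1 and Rps6 were called lower at 4 days by DESeq2, a second test beside edgeR. Rpl14 was called between lines, and Rpl37a was above 0 at 4 days but not called. RefSeq promoters of 64 members were matched (GRCm38.p6), 9 of them with more than 1 start site. A C at the annotated start followed by at least 4 C or T letters was found in 13 of the 64 (20.3%) and in 813 of 27025 genes (3.01%). When such a run could begin up to 5 bases to either side, the shares were 35.9% and 15.6%. The letters CCGGAAG, searched on both strands from 250 bases before to 50 after the start, lay in 39.1% of member promoters and 9.93% of all. For AAGATGGC the shares were 9.38% and 3.19%, and for GGGGCGG 23.4% and 25.5%. The stretches printed run from 30 bases before the start site to 15 bases from it, and capitals mark the run of C and T, counted from a C within 5 bases of the start. In Rpl14 the run begins farther upstream, and the capitals mark it from the start site on. Rps21, Rps6 and Rpl14 have such a run, and Rpl37a and Rps3a1 have none.
Rps21 (chr2:180257349-180257393, plus strand): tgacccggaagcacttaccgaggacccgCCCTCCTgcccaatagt
Rps6 (chr4:86857353-86857397, minus strand): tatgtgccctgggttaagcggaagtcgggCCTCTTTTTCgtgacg
Rpl14 (chr9:120571487-120571531, plus strand): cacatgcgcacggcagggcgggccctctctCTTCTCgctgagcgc
Rpl37a (chr1:72711230-72711274, plus strand): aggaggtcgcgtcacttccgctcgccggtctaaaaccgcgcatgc
Rps3a1 (chr3:86142654-86142698, minus strand): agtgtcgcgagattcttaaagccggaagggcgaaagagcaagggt
Such a match describes letters and not a measured start of transcription.

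The first comparison asked how the family stood after 24 h and 4 days of BMP4. Summed as a share of all transcripts, ribosomal protein messages were lower after 4 days on each of the 5 plates. The share was 5.08% untreated, 4.59% at 24 h and 3.69% at 4 days on Tac1 replicate 1. It was 3.99% untreated and 3.02% at 4 days on Tac1 replicate 2, whose 9 cells of 24 h stood at 6.03%. On Gcg replicate 1 it was 4.99, 5.43 and 2.97% in the same order. On the other Gcg plate it was 5.39, 5.01 and 3.83%, and on the Gip plate 4.69, 4.85 and 3.66%. The 5 values at 4 days all lie below the lowest untreated value. Wilson 95% intervals were at most 0.123 points to either side, and cover counting error only.

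The mean share was 4.83% ± 0.53 (SD, n = 5 plates) untreated and 3.43% ± 0.41 at 4 days. The difference within a plate was -1.40 ± 0.42 points (SD, n = 5), a change of -40.4 to -21.97% relative to the untreated share. At 24 h the difference was -0.069 ± 0.44 points (n = 4), lower on 2 plates and higher on 2. From 24 h to 4 days it was -1.43 ± 0.69 points (n = 4), lower on 4 of 4. No test was made on these sums, since they are a score over chosen genes. On the single-condition Tac1 plates the share was 3.69% at 24 h and 3.93 and 3.39% at 4 days, so those plates do not show the gap between 24 h and 4 days that the 4 plates with both conditions show.

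**Figure D1:**
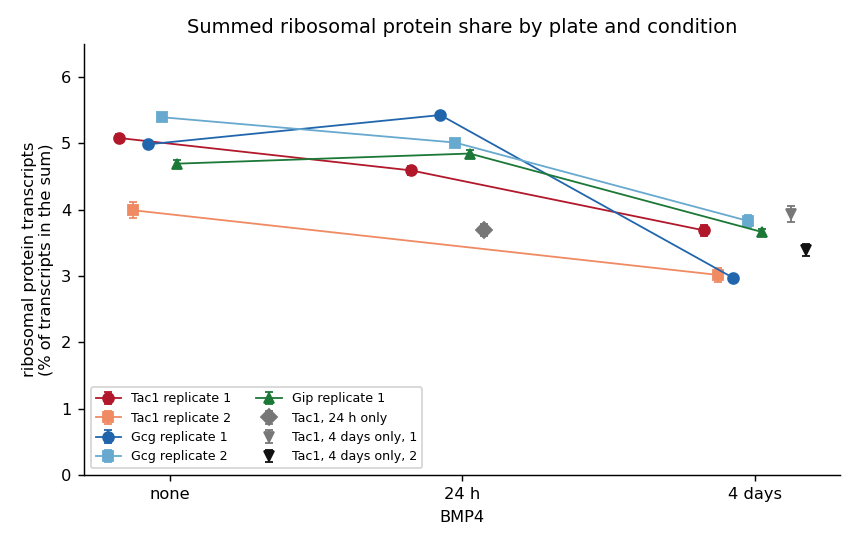
Share of transcripts from ribosomal protein genes (percent, y axis) in each sum of cells by BMP4 condition (x axis), with Wilson 95% intervals; lines join the conditions of 1 plate and unjoined symbols are plates of a single condition. The 5 joined plates end lower at 4 days (2.97 to 3.83%) than untreated (3.99 to 5.39%).

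The lower share was seen in both subunits. Core large-subunit genes made up 3.04% of transcripts untreated and 2.21% at 4 days on Tac1 replicate 1, and 2.88 and 1.77% on Gcg replicate 1. Core small-subunit genes made up 1.99 and 1.44%, and 2.04 and 1.15%, on the same plates. Over the 17 sums the ratio of large- to small-subunit transcripts lay between 1.38 and 1.69. Measured against the spike-in RNA added to each well, ribosomal protein transcripts at 4 days were 0.576, 0.934, 0.519, 0.443 and 0.352 times the untreated amount on Tac1 replicates 1 and 2, Gcg replicates 1 and 2 and the Gip plate. All other transcripts were 0.805, 1.25, 0.888, 0.634 and 0.456 times the untreated amount in that order. The ribosomal protein transcripts were below the untreated amount on 5 of 5 plates and the rest on 4 of 5.

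Other features of the cells moved with the condition too. The 5 nuclear RNA genes listed (Malat1, Neat1, Kcnq1ot1, Meg3 and Xist) give long RNAs that stay in the nucleus. They summed to 1.13 to 2.95% of transcripts untreated, 1.65 to 3.48% at 24 h and 3.10 to 10.5% at 4 days. The sum was higher at 4 days on 5 of 5 plates. Singly, 3 of the 5 had a log2 change above 0 and 2 below, from -1.05 to 2.39 (median 0.24). Kcnq1ot1 rose (log2 change 2.39 ± 0.44, edgeR adjusted p = 0.00676), the only 1 of the 5 to pass. With these genes left out of the total, a choice made after seeing them, the ribosomal protein share was still lower at 4 days on 5 of 5 plates, by 1.27 ± 0.52 points. The 8 endocrine markers summed to 0.588 to 8.41% untreated and 0.513 to 4.61% at 4 days, lower on 5 of 5 plates. Singly, 5 of them had a log2 change below 0 and 3 above, and 0 passed in edgeR. Restricted to cells with at least 0.2% of transcripts from Chga, Chgb, Cpe and Scg5, the 4 day share was lower by 1.07 ± 0.61 points, again on 5 of 5. Below that level were 0 of 68 cells untreated and 0 of 41 at 4 days on Tac1 replicate 1. On Tac1 replicate 2 it was 1 of 16 untreated and 3 of 15 at 4 days. In the same order it was 21 of 64 and 42 of 94 on Gcg replicate 1, and 15 of 75 and 10 of 24 on Gcg replicate 2. On the Gip plate it was 2 of 63 and 40 of 133. The 7 goblet markers, genes of mucus-making cells, summed to 0.199 to 1.27% untreated and 0.214 to 2.45% at 4 days, higher on 4 of 5 plates. Over the 5 plates together no marker was at 0 in either condition. Of the 7, 6 had a log2 change above 0. Clca1 (6.94, edgeR adjusted p = 7.0e-05) and Zg16 (3.09, edgeR adjusted p = 0.0182) rose. Spink4 went the other way and fell (-3.50, edgeR adjusted p = 0.00299). The 7 enterocyte markers were higher in sum on 2 of 5 plates. Singly, 6 of them had a log2 change above 0 and 1 below, from -1.24 to 2.74 (median 1.12), and 0 passed in edgeR. Of 5 stem and crypt markers 1 was tested, Smoc2, which fell (-2.29 ± 0.50, edgeR adjusted p = 0.0198). Of 6 markers of dividing cells 3 were tested, with 2 above 0 and 1 below, and Tyms rose (1.87 ± 0.41, edgeR adjusted p = 0.0203). The dividing markers summed to only 0.00575 to 0.0146% of transcripts untreated and 0.0138 to 0.0174% at 4 days, and the stem and crypt markers to less. The part of these features in the result was not tested. In sums of cells, fewer cells of a type and less RNA per cell cannot be told apart.

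Gene by gene, the change at 4 days was small and mostly in 1 direction. Of the 74 tested members, 68 had a log2 change below 0, with a median of -0.29 and quartiles of -0.40 and -0.17, against a median of 0.00 over all 8305 genes tested. In the edgeR quasi-likelihood test with Benjamini-Hochberg adjustment over all genes, 1 member passed, downward, and 0 upward. Of all genes 3.29% passed, 0.903% downward and 2.38% upward. At an unadjusted p under 0.05 the count was 19 members, all lower, and 1243 genes (14.97%). DESeq2 called 6 members lower: Rpl3, Rpl41, Rplp1, Rps21, Rps3a1 and Rps6. Over all genes it called 266 higher and 100 lower. On every plate 40 of the 74 members were lower than untreated, and 0 were higher. The same held for 11.9% and 5.45% of all genes. With library totals in place of TMM scaling the median over all genes at 4 days was -0.17 and that of the members -0.47, so the gap between them was about as wide. The adjusted p stands for single genes and gives no test of the family.

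At 24 h no member passed in edgeR or DESeq2, and 0 had an unadjusted p under 0.05. The members' median log2 change was 0.03, the range -0.23 to 0.27, and 30 of 74 were below 0. Of all genes 0.0963% passed at 24 h. On all 4 plates 6 members were lower and 1 was higher, against 6.98% and 5.71% of all genes. Between 24 h and 4 days edgeR called 0 members and 0.494% of all genes. The unadjusted p was under 0.05 for 17 members, all lower, and for 9.24% of all genes. By DESeq2, 5 passed, all lower, Rpl10, Rps21, Rps3a1 and Rps6 among them, where 90 genes in all were called higher and 31 lower. The median of the members was -0.32, with 69 of 74 below 0. On every plate 49 members were lower and 0 were higher, as were 13.5% and 5.31% of all genes. These comparisons share plates with the 4 day comparison.

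**Figure D2:**
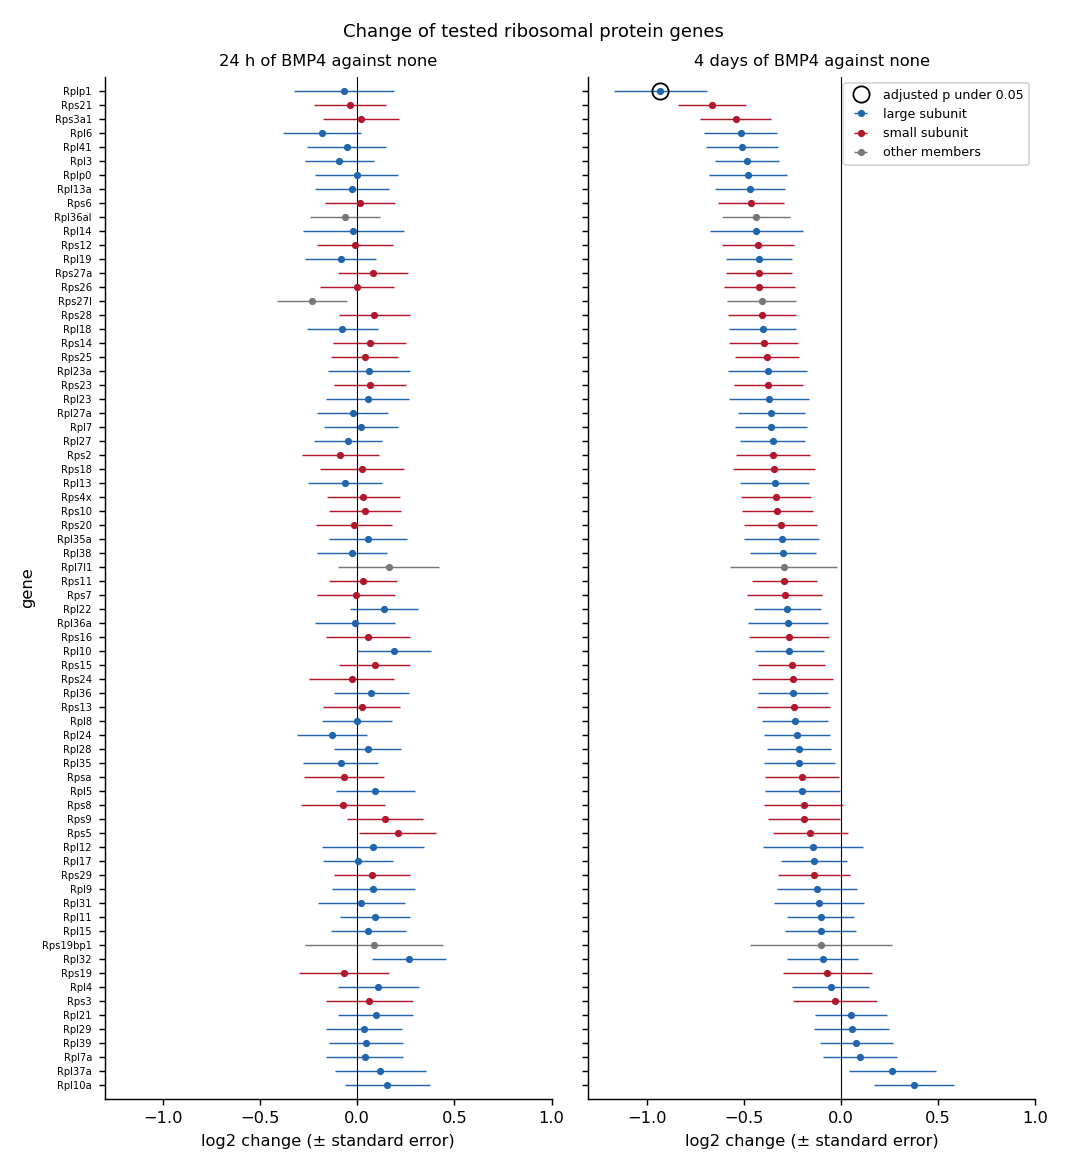
Log2 change (x axis) of 72 of the 74 tested ribosomal protein genes (rows, ordered by the 4 day change) after 24 h and after 4 days of BMP4, with the standard error of the edgeR fit; colours give the subunit and a ring marks adjusted p under 0.05. At 24 h the genes lie around 0 (median 0.03), and at 4 days 68 of the 74 were below 0, with Rplp1 lowest and ringed.

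In the large subunit 35 of 41 core genes were below 0 at 4 days (median -0.27), and in the small subunit 29 of 29 (median -0.33). Rplp1, on chr9:61913284-61914542 of GRCm38 (minus strand, protein-coding), fell. Its log2 change was -0.93 ± 0.24 (edgeR adjusted p = 0.0478) and it was lower on 5 of 5 plates. Rps21, a small-subunit protein gene on chr2:180257377-180258445, had -0.66 ± 0.17 (edgeR adjusted p = 0.0514). Rps21 stood at 1054 CPM untreated, 951 at 24 h and 537 at 4 days on Tac1 replicate 1, and at 1007 and 456 untreated and at 4 days on Tac1 replicate 2. It stood at 608, 844 and 390 on Gcg replicate 1, at 981, 803 and 598 on Gcg replicate 2 and at 837, 730 and 491 on the Gip plate. Its 5 values at 4 days (390 to 598 CPM) were all below the untreated ones (608 to 1054). In DESeq2 Rps21 passed (log2 change -0.62, adjusted p = 0.00136). The next largest values, none of which passed in edgeR, were -0.54 ± 0.18 for Rps3a1, -0.52 ± 0.19 for Rpl6 and -0.51 ± 0.19 for Rpl41. Among the 5 most abundant genes, Rps12 had -0.43 ± 0.18 and Rpl10 -0.27 ± 0.18.

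Above 0 stood 6 genes, all of the large subunit and none past the test. Rpl10a had 0.37 ± 0.21 and Rpl37a 0.26 ± 0.22, and Rpl7a (0.10), Rpl39 (0.08), Rpl29 (0.05) and Rpl21 (0.05) lay within 1 standard error of 0. Rpl10a was at 413 to 632 CPM untreated and 456 to 877 at 4 days, higher on 3 of 5 plates, so its groups overlap. Among members that are not core subunits, Rpl36al, a close paralog of Rpl36a, had -0.44 ± 0.18 and Rps27l, a paralog of Rps27, -0.41 ± 0.18. Rpl7l1 had -0.29 ± 0.28 and Rps19bp1, a protein that binds Rps19, -0.10 ± 0.36. Among the least abundant tested core genes, Rpl36a had -0.27 ± 0.20 and Rpl31 -0.11 ± 0.23. The 10 tested members with a C at the annotated start followed by at least 4 C or T letters had a median of -0.32 at 4 days. The 45 other tested members with a matched promoter, some with a run nearby, had -0.28, and 10 and 41 were below 0.

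Rplp1 was among the members whose level differed by line. Its product forms, with Rplp0 and Rplp2, the flexible stalk that recruits translation factors. In the Tac1 line it stood at 3750 CPM untreated, 3640 at 24 h and 1014 at 4 days on replicate 1, and at 3233 untreated and 872 at 4 days on replicate 2. The single-condition Tac1 plates gave 2342 at 24 h and 1019 and 851 at 4 days. In the Tac1 line the 4 day values (851 to 1019) and the others (2342 to 3750) thus do not overlap. On Gcg replicate 1 it stood at 1305, 1404 and 752 CPM, on Gcg replicate 2 at 1353, 1265 and 842, and on the Gip plate at 1609, 1617 and 1155. The lines differed untreated and stood close together at 4 days.

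Within the Tac1 line the log2 change of Rplp1 at 4 days was -1.66 ± 0.31 (edgeR adjusted p = 0.0312), and within the Gcg line -0.57 ± 0.30 (edgeR adjusted p = 0.778). The difference between these responses, Gcg minus Tac1, was 1.09 ± 0.43 and did not pass (edgeR adjusted p = 0.541). As a share of ribosomal protein transcripts, Rplp1 made up 7.38 and 8.11% in untreated Tac1 cells and 2.75 and 2.90% at 4 days. In Gcg cells it made up 2.62 and 2.51% untreated and 2.53 and 2.20% at 4 days, and on the Gip plate 3.43 and 3.15%. The median Tac1 cell of replicate 1 held 3457 CPM untreated and 865 at 4 days. Other GENCODE M21 genes, 3 in number and 2 of them pseudogenes, together hold 61.4% of the 60-base windows at its 3′ end, so its reads may be split between copies. Its call over all plates was lost without Tac1 replicate 1 (-0.76, edgeR adjusted p = 0.207), Tac1 replicate 2 (0.15), Gcg replicate 2 (0.0848) or the Gip plate (0.0948). In cells of at least 4000 transcripts it was -0.78 (edgeR adjusted p = 0.183).

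**Figure D3:**
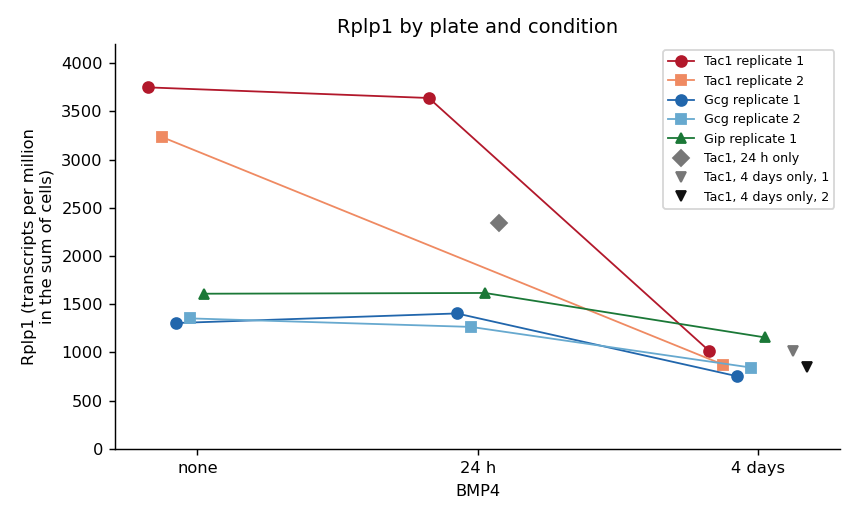
Rplp1 in CPM (y axis) in each sum of cells by BMP4 condition (x axis); lines join the conditions of 1 plate and unjoined symbols are plates of a single condition. Tac1 plates with untreated cells start at 3233 and 3750 and reach 851 to 1019 at 4 days, and Gcg and Gip plates start between 1305 and 1609.

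By line, the members' median log2 change at 4 days was -0.11 in the Tac1 line, with 48 of 74 below 0, and -0.46 in the Gcg line, with 72 of 74 below 0. In the Tac1 line 1 member (Rplp1, lower) passed, and of all genes 2.01%, with 0.578% lower and 1.43% higher. In the Gcg line edgeR and DESeq2 called 0 members, while 0.253% of all genes passed in edgeR, 0.0602% lower. The unadjusted p was under 0.05 for 5 members there, and for 7.12% of all genes. Plate by plate the median log2 CPM ratio was -0.43 and -0.25 on the Tac1 plates, -0.73 and -0.50 on the Gcg plates and -0.35 on the Gip plate. Scaled by library totals alone, the members' median was -0.33 in the Tac1 line, with 63 of 74 below 0 (all genes -0.22), and -0.62 in the Gcg line (all genes -0.16). The median within the Tac1 line turned to 0.08 without Tac1 replicate 1, when its lone other plate was assumed to vary like the rest. For the response of Gcg minus that of Tac1, 0 members and 0% of all genes passed in edgeR and 0 members in DESeq2, with 1 member at an unadjusted p under 0.05. In the Gcg line at 24 h 0 members passed in edgeR or DESeq2 and 0 had an unadjusted p under 0.05, with 0.0843% of all genes passing.

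Other genes of translation were read from lists of known members, beside 3.29% of all genes that passed at 4 days and 14.97% at an unadjusted p under 0.05. Of 35 translation factors tested, 0 passed at 4 days in either direction and 29 were below 0 (median -0.20), with an unadjusted p under 0.05 for 5. Eef1a1, the elongation factor that brings transfer RNA to the ribosome, had -0.40 ± 0.17 (edgeR adjusted p = 0.283). Gnb2l1, which encodes the small-subunit protein Rack1 under another symbol, had -0.60 ± 0.18 (edgeR adjusted p = 0.104), whereas Fau, which encodes a ribosomal protein fused to a ubiquitin-like domain, had -0.17 ± 0.18. Of 27 ribosome assembly genes 0 passed and 19 were below 0 (median -0.19). Of 76 mitochondrial ribosomal protein genes 0 passed and 55 were below 0 (median -0.20). Of 7 snoRNA host genes 0 passed and 6 were below 0. In the Myc and mTOR list 1 of 14 passed: Deptor, an inhibitor of mTOR, fell, with a log2 change of -1.38 ± 0.32 (edgeR adjusted p = 0.0249).

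The genes most like the family across the 14 sums of the 3-condition plates, by Pearson's r of log2 CPM with the log2 summed ribosomal protein CPM after centring each plate, were Gnb2l1 (0.98), C2cd4b (0.96), Maged1, Eef1a1, Acly, Pdap1, Dbn1, Nup210, Mrfap1 and Glul (0.93). They led 4743 genes, and the sums share plates and totals. This is a description of these sums.

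The next comparison asked whether untreated cells of the 3 lines differed. The Gip line gave 1 untreated sum, so comparisons with it take their spread wholly from the other lines. Against the Tac1 line, untreated Gcg cells had 2 members higher and 7 lower in edgeR, where 16.4% of all genes passed, 8.76% higher and 7.64% lower. The Gip plate had 1 member higher and 6 lower against the Tac1 line, with 6.81% of all genes passing, 3.20% higher and 3.61% lower. DESeq2 called 5 members for Gcg and 3 for Gip, all lower, among 311 genes higher and 361 lower for Gcg and 64 higher and 176 lower for Gip, of 9168. Between Gcg and Gip 0 members passed in edgeR or DESeq2, while 5.09% of all genes passed in edgeR, 3.04% higher and 2.05% lower. There 1 member had an unadjusted p under 0.05. The members' medians were 0.25, 0.13 and 0.12, against 0.09, 0.05 and 0.04 over all genes.

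The largest difference was in Rpl14, a large-subunit protein gene on chr9:120571444-120574654. It stood at 471 and 441 CPM in untreated Tac1 cells, at 14.1 and 60.9 in Gcg cells and at 16.5 on the Gip plate. The log2 difference was -3.67 ± 0.44 for Gcg against Tac1 (edgeR adjusted p = 8.4e-07) and -4.72 ± 0.67 for Gip against Tac1 (edgeR adjusted p = 4.2e-05). The Gip line has 1 untreated sum, so every error and p against Gip takes its spread from the other lines. Over all sums it stayed between 184 and 471 CPM in Tac1 files and between 12.8 and 60.9 in Gcg and Gip files, whatever the condition. Rpl32 (204 to 403 against 55.2 to 136), Rpl31 (86.3 to 260 against 29.0 to 52.2) and Rpl29 (221 to 310 against 89.6 to 181) also did not overlap. Among the 77 members with a mean of at least 10 CPM, 5 had every Tac1 sum above every other sum, these among them, and 0 had the reverse. The same held for 2.64% and 1.85% of the 9242 genes at that level. In these differences the line and the file kind cannot be told apart.

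Rpl32, Rps23 and Rpl31 were also lower against Tac1 in both lines, Rplp1 and Rps19 in the Gcg line and Rpl36a on the Gip plate. The log2 differences of these genes ran from -2.23 (Rpl32) to -1.20 (Rps19) for Gcg and from -2.04 (Rpl32) to -1.75 (Rpl31) for Gip. Rpl12, a stalk-base protein gene, was higher by 1.15 ± 0.40 in Gcg (edgeR adjusted p = 0.0495) and 1.54 ± 0.46 in Gip (0.0422), at 345 and 144 CPM in Tac1, 587 and 598 in Gcg and 749 in Gip cells. Rpl39 was higher in Gcg by 1.22 ± 0.36 (edgeR adjusted p = 0.0202), at 163 and 115 CPM against 320 and 367. Rpl14 and Rpl32 passed for Gcg against Tac1 with any 1 plate left out, and for Gip against Tac1 without either Gcg or either Tac1 plate. With a Tac1 plate left out, Gip against Tac1 sets 1 plate against 1 and rests on the spread between the 2 Gcg plates alone.

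Other calls were lost without single plates. For Gcg against Tac1, leaving out Tac1 replicate 1 ended those of Rpl31 (-0.83), Rplp1 (-1.24) and Rps23 (-1.20), and brought Rps19 to 0.14 (edgeR adjusted p = 0.889). Leaving out Tac1 replicate 2 ended those of Rpl12 (0.71) and Rpl39 (1.00). Without Gcg replicate 1 those of Rpl12, Rpl31, Rpl39, Rplp1 and Rps19 were lost, without Gcg replicate 2 those of Rpl12, Rpl39 and Rplp1, and without the Gip plate that of Rps19 (-1.16). For Gip against Tac1, leaving out Tac1 replicate 1 ended those of Rpl31 (-0.99), Rpl36a (-1.39) and Rps23 (-1.55), and leaving out Tac1 replicate 2 that of Rpl12 (1.10).

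**Figure D4:**
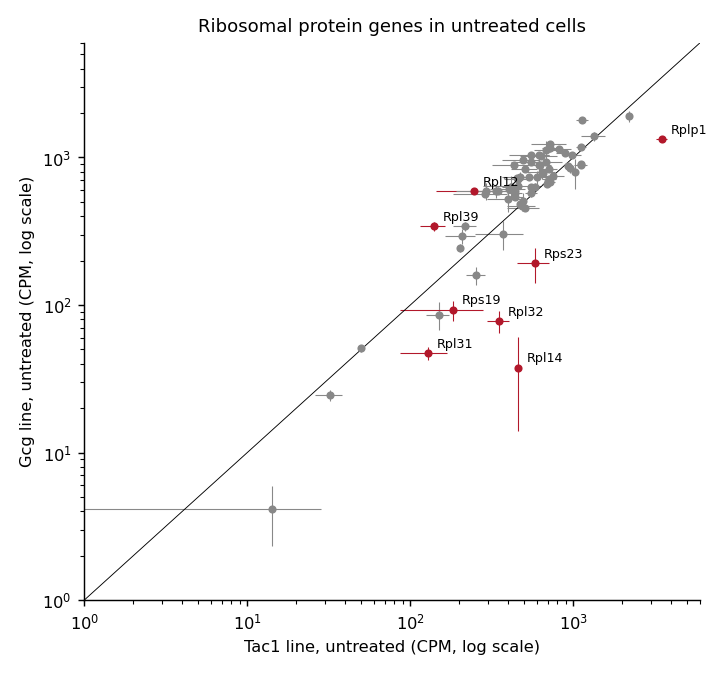
Mean level of 73 of the 75 members tested in untreated cells of the Tac1 line (x axis) and Gcg line (y axis), in CPM on log scales; bars span the 2 plates of a line, the line marks equal levels and red names passed the test. Most genes lie near equality, while Rpl14 lies far below it; the bar of Rplp2 runs off the axis because 1 Tac1 plate held none.

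The lines also differed in cell makeup. The 7 enterocyte markers, genes of absorptive cells, summed to 0.0721 to 0.148% of transcripts in untreated Tac1 cells, with Alpi and Apoa4 at 0, and to 2.07 to 2.65% in Gcg cells and 1.01% in Gip cells. The 7 goblet markers summed to 0.199 to 0.282% in Tac1 cells, with Agr2 and Clca1 at 0, to 0.270 to 1.27% in Gcg and to 0.277% in Gip cells. Xist, the RNA that coats the inactive X chromosome in female cells, had counts in untreated Tac1 cells and was at 0 in untreated Gcg and Gip cells. Rpl10, Rpl36a, Rpl39 and Rps4x lie on chromosome X. The part of these features in the ribosomal protein differences was not tested.

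The last comparison asked whether the depth of a cell, its total transcripts, went with its ribosomal protein share. Cells of at least 2000 transcripts were split at the median within each plate and condition, and each side was then summed over the conditions of its plate. The deeper cells had a mean share of 4.19% and the shallower 4.07%, a difference of 0.116 ± 0.63 points (SD, n = 8 plates), higher on 4 of 8. It was 1.00 or more on Tac1 replicate 1 (4.92 against 3.92%) and the Gip plate (4.52 against 3.51%), and below 0 on both Gcg plates (4.14 against 4.58%, and 4.85 against 5.55%). Gene by gene 0 of 73 members passed in edgeR, where 0.643% of 4045 genes did, or in DESeq2. In edgeR 5 had an unadjusted p under 0.05, as did 13.1% of all genes. The members' median log2 difference was 0.02 and that of all genes 0.02.

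In finer classes of depth the untreated mean was 4.69% ± 0.94 (SD, n = 5 plates) at 2000 to 4000 transcripts and 5.41% ± 0.44 (n = 4) at 8000 to 16000. After 4 days it was 3.26% ± 0.62 (n = 5) and 3.86% ± 0.48 (n = 3). At 16000 or more transcripts the mean was lower again, 4.68% ± 0.34 (n = 3) untreated and 3.18% ± 0.66 (n = 2) after 4 days. The same held at 24 h, with 5.53% at 8000 to 16000 and 4.82% at 16000 or more. The 2000 to 4000 and 8000 to 16000 classes were compared within a plate and condition. In 8 of 10 pairs the deeper class had the higher share, and the differences ran from -0.850 to 2.00 points. On Gcg replicate 1, where the deeper cells had the lower share over all conditions, the deeper class was higher untreated (1.499 points) and at 24 h (1.47) and lower at 4 days (-0.104). Over plates the mean was 0.551 ± 0.94 (SD, n = 4), and 1.02 without Gcg replicate 2. On the Gip plate at 4 days the share was 2.35% in the shallower and 4.36% in the deeper class, while in untreated cells of Gcg replicate 2 it went from 6.31 to 5.46%. Spearman's rho between share and total over the cells of a sum ran from -0.29 to 0.60, a description with no test. Cells of 1 plate share its libraries and the total is the denominator of the share.

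The 4 day difference was present within classes of like depth. It was -1.44 ± 1.05 points (SD, n = 5) at 2000 to 4000 transcripts, lower on 4 of 5 plates. It was -1.39 ± 0.42 (n = 4) at 4000 to 8000, lower on 4 of 4, and -1.53 ± 0.98 (n = 3) at 8000 to 16000, lower on 3 of 3. At 16000 or more it was -1.31 ± 0.68 (n = 2), lower on both plates. At 1000 to 2000 transcripts, below the limit used elsewhere, it was -2.38 ± 1.11 (n = 5), lower on 5 of 5. At 500 to 1000 transcripts, where 1 plate had both conditions, it was 0.278 points and thus not lower. At 24 h the means in these classes lay between -0.365 and 0.139 points, each within its SD.

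**Figure D5:**
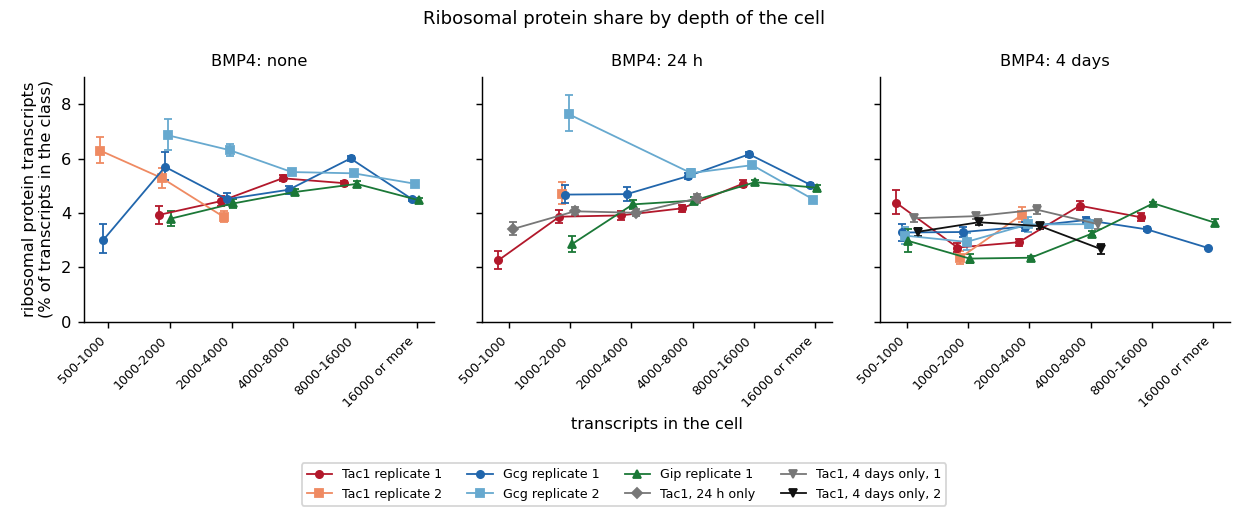
Share of transcripts from ribosomal protein genes (percent, y axis) in cells grouped by their transcript total (x axis, classes of at least 5 cells), for the 3 BMP4 conditions; points are plates and bars Wilson 95% intervals. No common slope with depth is seen across plates, and from 4000 transcripts upward 4 day values lie below untreated ones of the same plate.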

How the data were processed

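Single sorted cells were sequenced by SORT-seq, per the labels' protocols. The submitters' processing notes name BWA 0.6.2-r126 and the mm10 build. Which counter, annotation and strand setting were applied is not stated by any source used here. The values the authors deposited are expected counts per gene and well, corrected for identifiers drawn more than once; inverting that correction with 4096 identifiers gave whole numbers within 0.01 for 100.0% of values, whereas the labels state a shorter identifier. No matrix was clustered and no doublet caller was run, since each well received 1 sorted cell.

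Genes listed in both kinds of file were used, without spike-ins and mitochondrial genes; the others held 1.34 to 2.05% of transcripts per plate. Expected counts of kept cells were summed and rounded to whole numbers. The test was edgeR 4.0.16 (R 4.3.3; filterByExpr, TMM, quasi-likelihood F test, plate as a block, a gene passing at a Benjamini-Hochberg adjusted p under 0.05 over all genes tested). Fits within a line share 1 spread over the 5 plates. Conditions lie side by side on a plate, which pairs them; residuals of sums of 1 plate correlated at 0.362 to 0.730 in all 13 pairs. Log2 CPM ratios of a plate add 0.5 counts. Counts were simulated from each gene's overall share of transcripts, without plate, line or condition differences other than the changes set. The 4 day test recovered 34.4% of 2-fold and 85.3% of 4-fold changes among 7952 genes, with 8 false calls. The Gcg line 4 day test recovered 4.12% and 52.6% among 7847, with 5 false calls. The untreated Gcg against Tac1 test recovered 3.09% and 47.3% among 8574, with 0 false calls. The deep against shallow test recovered 91.0% and 100.0% among 3834, with 7 false calls. Changes under 2-fold, as all tested members had at 4 days over the 5 plates, were not simulated. DESeq2 1.42.0, other scalings, filters, cell limits and plates left out were alternatives.

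Named genes are members that passed, the 5 largest changes each way at 4 days and tested members outside the core. Also named are the 5 highest and lowest tested members, and list genes that passed at 4 days against none over all plates. List genes that passed in other comparisons are mostly not named. Members called by DESeq2 alone and those whose start sites are shown were added after their values were seen. The members and lists were chosen with earlier results of these data known. Start sites and neighbouring sequence are from RefSeq, GRCm38.p6; Rplp1 had no entry. Gene positions are from GENCODE M21. A few genes are counted but not reported here by name or plotted. Rows present in 1 kind of file only were not tested.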

Additional observations from a re-analysis of the deposited data

Results flagged for a closer look

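For Rpl7l1, a paralog of Rpl7, the log2 CPM ratio of 4 days to none was 0.643 on Tac1 replicate 2, far above the other 4 plates. This was 1 of 26 groups of plates looked at in this way, and chance alone sets about 1 in 20 apart. The ratio on Tac1 replicate 2 rests on 5 counts untreated and 8 at 4 days.

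Rpl37a and Rpl39, both large-subunit genes, were higher at 4 days on both Tac1 plates and lower on both Gcg plates. The difference in response, Gcg minus Tac1, was -0.94 ± 0.46 for Rpl37a (edgeR adjusted p = 0.574) and -0.71 ± 0.44 for Rpl39 (edgeR adjusted p = 0.682), and neither passed.

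Some members are listed in 1 kind of file and entered no comparison. Rpl37rt, for which RefSeq lists Rpl37 as a synonym, had at most 45 transcripts on any of its 3 plates. Rps4l had 41.0 transcripts on the Gip plate, and Rps4y2, the same RefSeq locus under another symbol, had at most 34 on any of its 5 Tac1 plates. All of these exceed the 3 counts that a count of 0 allows.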

How the results depend on the processing

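The 4 day difference in the summed share kept its direction under all 7 alternatives (-1.52 to -1.07 points) and with any 1 plate left out (-1.50 to -1.24). The difference between classes of depth ranged from 0.384 to 0.535 points under 4 alternatives and from 0.340 to 1.02 with a plate left out. The members' median log2 change at 4 days was -0.47 to -0.25 under 9 alternatives and -0.36 to -0.19 with a plate left out.

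The number of members called moved more. At 4 days DESeq2 called 6, library totals 4, TMM without ribosomal protein genes 2, cells of at least 1000 transcripts 2, cells with endocrine markers 2 and cells of at least 4000 transcripts 0. With a plate left out it was 0 to 1. The fit with no replicate block called 0 members and 14 genes in all, against 1 and 273 in the paired fit; there Rplp1 had -1.10 (adjusted p = 0.483). From 24 h to 4 days DESeq2 called 5 and the fit with no low count filter 1. Within the Tac1 line cells of at least 4000 transcripts gave 0 and cells with endocrine markers 3, and plates left out gave 0 to 1; Rplp1 was lost without Tac1 replicate 1, Tac1 replicate 2 or Gcg replicate 2 (highest adjusted p = 0.292) and in cells of at least 4000 transcripts (0.37). In untreated cells DESeq2 called 5 for Gcg against Tac1 and 3 for Gip against Tac1, and plates left out gave 4 to 11 and 3 to 9. Cells with endocrine markers gave 1 for Gcg against Gip, where plates left out gave 0 to 1. Cells of at least 1000 transcripts gave 1 for deep against shallow cells. At 24 h, within the Gcg line and for the difference between the lines' responses the count was 0 under every alternative run. The causes were not tested.

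Genes near 0 at 4 days changed sign. With library totals Rpl29 had -0.12, Rpl39 -0.0905 and Rpl7a -0.0808. In cells of at least 4000 transcripts these were -0.0279, -0.0168 and -0.100. In cells with endocrine markers Rpl7a had -0.0325 and Rps19bp1 0.11. With a plate left out Rpl29 ranged from -0.0441 to 0.19, Rpl31 from -0.26 to 0.0096, Rpl39 from -0.0263 to 0.23 and Rpl7a from -0.0709 to 0.18. In untreated cells, Gcg against Tac1, Rps19 ranged from -1.67 to 0.14.

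Over all genes, calls ranged from 14 to 643 at 4 days (273 in the reported fit), from 5 to 44 at 24 h (8), from 0 to 320 from 24 h to 4 days (41), from 0 to 549 in the Tac1 line (167) and from 5 to 237 in the Gcg line (21). In untreated cells they ranged from 672 to 1690 for Gcg against Tac1 (1503), 240 to 1011 for Gip against Tac1 (624) and 157 to 616 for Gcg against Gip (467), and for depth from 0 to 198 (26). With library totals the 4 day calls split into 166 higher and 153 lower, against 198 and 75. Sums held as few as 15 cells or 96185 transcripts, and what this depth limits was not tested.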
